A study of Mus musculus with 6 samples.

Results

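A group of 10 genes of the Notch pathway were followed in C2C12 cells with and without Myod1: the receptors Notch1, Notch2 and Notch3, the ligands Dll1, Jag1 and Jag2, the nuclear factor Rbpj, and the target genes Hes1, Hey1 and Heyl. They were picked by gene symbol, with earlier results of these data known, and make up 10 of the 28892 genes in the deposited gene table. C2C12 is a myoblast line that goes back to satellite cells of the thigh muscle of a C3H mouse. C2C12 WT, the unedited cells, were compared with C2C12 Myod1-/-, in which CRISPR/Cas9 delivered by a lentivirus had removed part of the first exon of Myod1 on both alleles, and these knockout cells came from 1 clone. Both genotypes were kept for 6 days in Ndiff227, a serum-free medium used to turn embryonic stem cells into neural cells. RNA was sequenced from 3 samples of each genotype. It is not stated whether these were separate cultures, so p-values measure the spread between libraries, which may be technical, and an effect of Myod1 loss cannot be told apart from other features of the 1 clone.

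In Notch signaling a ligand on one cell binds a receptor on its neighbor. The receptor is then cut, first outside the membrane by an ADAM protease and then within it by gamma-secretase, and its intracellular part enters the nucleus. There it joins the DNA-binding protein Rbpj and a Mastermind coactivator and turns on genes of the Hes and Hey families, which encode transcriptional repressors. In skeletal muscle the pathway is known for keeping satellite cells undifferentiated and for holding back Myod1 and Myog. In the neural tube it keeps progenitors from becoming neurons.

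The receptor Notch1 and the ligands Jag2 and Dll1 were lower in C2C12 Myod1-/- cells, and Notch3 was lower by a smaller amount. Jag2 stood at 0.252 times and Notch1 at 0.331 times the mean of C2C12 WT, Dll1 at 0.582 times and Notch3 at 0.762 times. Notch2, Jag1, Rbpj and Hes1 did not pass the test. Hey1 and Heyl were under the filter on low values, and their levels lay apart in opposite directions. Values are FPKM, fragments scaled to the length of the gene and to the mapped fragments of the library. On this scale levels of different genes can be set side by side, though only roughly. A gene rose or fell where limma, fitted on log2(FPKM + 0.1) of 14045 genes whose mean reached 0.5 FPKM, gave an adjusted p under 0.05. Of the 10 genes 8 were tested, 4 fell and 0 rose. Over all tested genes 33.3% fell and 27.9% rose, so that changes were common in this comparison. By the rule for DEGs, a log2 fold change of 1 or more in either direction with an unadjusted p up to 0.05, 2 of the 8 were called, Notch1 and Jag2, beside 20.3% of all tested genes. The 3 libraries of one genotype did not overlap those of the other in 5 of the 8, against 67.9% of all tested genes. The median log2 fold change was -0.35 over the 8 genes and -0.05 over all tested genes.

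**Figure D1:**
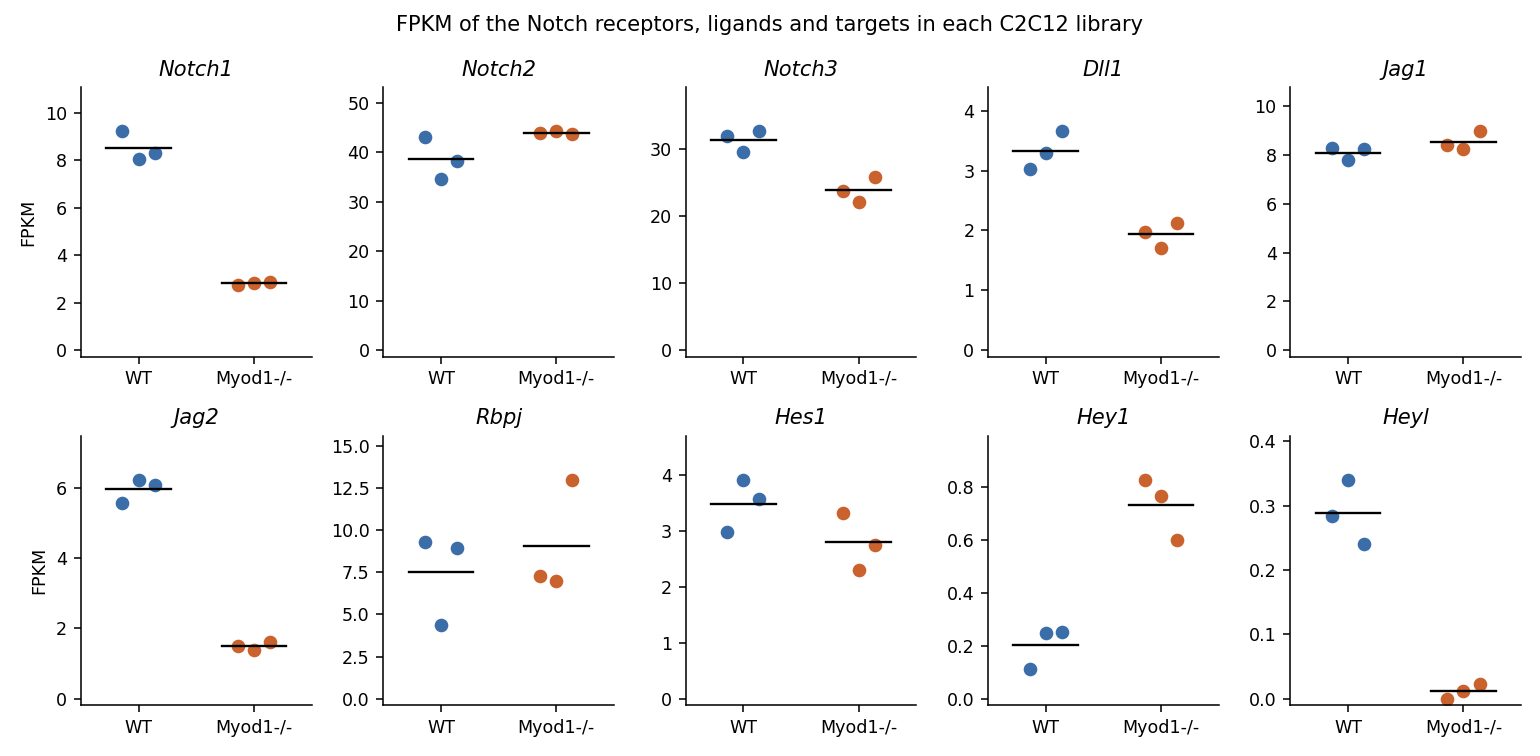
FPKM of each gene (linear axis, with its own scale in each panel) in the 3 C2C12 WT libraries (blue) and the 3 C2C12 Myod1-/- libraries (orange), where points are libraries and bars are means. The libraries lie apart for Notch1, Notch2, Notch3, Dll1, Jag2, Hey1 and Heyl, with Notch2 separated by less than 1 FPKM, and overlap for Jag1, Rbpj and Hes1.

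The libraries were first checked through the targeted gene. Myod1 had 17.3, 25.8 and 27.7 FPKM in C2C12 WT. It had 0.0614 FPKM in C2C12 Myod1-/- replicate 1 and was listed at 0 in replicates 2 and 3. The myoblast and myotube markers Myod1, Myf5, Myog, Des, Myh3 and Ckm summed to between 746 and 835 FPKM in C2C12 WT against to between 18.7 and 20.3 FPKM in C2C12 Myod1-/-. Of these 6 markers 5 fell, beside 33.3% of all tested genes. Myf5, a sister factor of Myod1, did not pass the test (log2 fold change -0.07, SE 0.14, adjusted p = 0.700). Myod1, Myog, Myh3 and Ckm passed the filter only through C2C12 WT, where they were high, and Myod1 was the edited gene. The count is therefore given as a description. By the summed levels the genotypes also differed in how far they carried markers of muscle differentiation, and the part of this in the Notch genes was not tested. Lower levels in a bulk sample cannot tell fewer cells of a type from less RNA per cell. The 6 endothelial markers analysed summed to at most 0.337 FPKM in any library, and the 6 leukocyte markers to at most 0.737 FPKM, with no marker of either list past the filter. The leukocyte sum holds both gene entries listed under Itgam. Of the 6 mural cell markers, Pdgfrb fell (100.1 to 70.6 FPKM, log2 fold change -0.50, SE 0.05, adjusted p = 0.000166) and Cspg4 rose (6.35 to 7.54 FPKM, log2 fold change 0.24, SE 0.06, adjusted p = 0.00995), while the defining Rgs5, Kcnj8, Abcc9 and Myh11 stayed under the filter. The files hold no counts. From the smallest steps between FPKM values, relative depth ranged from 1 to 1.13 times that of C2C12 WT replicate 1. Mitochondrially encoded genes took 7.32% to 8.49% of the summed FPKM in C2C12 WT against 5.07% to 5.25% in C2C12 Myod1-/-.

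Promoters of 7 of the 10 genes, in 9 windows of 250 bases before a transcription start, were found in RefSeq on GRCm38.p6, and those of Hes1, Hey1 and Heyl were not used here. Members of the Myod1 family bind E-boxes, CANNTG, most often CAGCTG, and Rbpj binds around the core TGGGAA. Both strands were searched, the first motif contains the second, and CANNTG was found in 66.2%, CAGCTG in 13% and TGGGAA in 21.6% of the 32851 mouse windows of this length. Among the 9 windows 4 held CANNTG, 2 held CAGCTG and 2 held TGGGAA. The upstream start of Dll1 had 3 E-boxes, which begin 229, 155 and 132 bases before the start, the last of them CAGCTG. Its window is shown because Dll1 fell and it held the most E-boxes, and that of Notch1 because this gene fell most among the receptors and its window held none. Both are given 5′ to 3′ along the gene, and capitals mark E-boxes.
Dll1, upstream start, chr17:15376933-15377182, - strand: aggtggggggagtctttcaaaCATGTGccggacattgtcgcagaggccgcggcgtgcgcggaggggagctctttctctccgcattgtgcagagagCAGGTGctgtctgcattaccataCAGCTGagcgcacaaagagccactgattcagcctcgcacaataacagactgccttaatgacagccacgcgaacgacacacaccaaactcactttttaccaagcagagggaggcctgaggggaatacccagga
Notch1, chr2:26503825-26504072, - strand, without 2 bases that lie in an annotated exon: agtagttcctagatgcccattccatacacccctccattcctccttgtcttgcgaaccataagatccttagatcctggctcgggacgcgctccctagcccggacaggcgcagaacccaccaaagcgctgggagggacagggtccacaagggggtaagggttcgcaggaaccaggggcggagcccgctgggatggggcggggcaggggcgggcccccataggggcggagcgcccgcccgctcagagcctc
Jag1, which did not change by the test, also held a CAGCTG, 82 bases before its start. The windows of Jag2, Notch2 and Notch3 held none of these letters. The windows of Rbpj held TGGGAA on either strand, 149 and 65 bases before 1 start, and the nearer of these lay 205 bases before the next start. Rbpj did not pass the test either, and its first window also held 2 E-boxes, CACCTG and CACTTG, 212 and 124 bases before the start. The other window of Dll1 held 1 E-box, CATTTG, 220 bases before its start. A match is a run of letters and not a measured binding site, and a window without one says nothing about sites elsewhere.

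Notch1 encodes the receptor best known in satellite cells and neural progenitors. The gene (ENSMUSG00000026923) lies at chr2:26457903-26516663 on the - strand of GRCm38. Its levels were 9.23, 8.06 and 8.29 FPKM in C2C12 WT against 2.74, 2.84 and 2.88 FPKM in C2C12 Myod1-/-. Every knockout library was thus at less than 3 FPKM and every wild-type library at more than 8. The log2 fold change was -1.56 (SE 0.07, adjusted p = 6.37e-06), and 6.84% of tested genes had a log2 fold change as low or lower. The fall was seen in the protein-coding transcript ENSMUST00000028288 with 34 exons, which went from 12.7 ± 0.895 FPKM in C2C12 WT to 4.15 ± 0.103 FPKM in C2C12 Myod1-/- (SD, n = 3), and changed on the log2 scale by -1.59 (SE 0.11, adjusted p = 0.000539). The value of this transcript was above that of the whole gene in each library, so that levels depend on which table is read. The antisense genes 0610009E02Rik and Gm13568 overlap exons of Notch1 and were at most 0.449 and 0.205 FPKM. No strand setting is stated for the counting, and reads of overlapping antisense genes cannot then be told apart.

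Notch3, a receptor also prominent in smooth muscle and pericytes, lies at chr17:32120820-32166880 on the - strand in the deposited table (ENSMUSG00000038146). It had 31.9, 29.5 and 32.7 FPKM in C2C12 WT against 23.8, 22.1 and 25.8 FPKM in C2C12 Myod1-/-. The highest knockout library lay below the lowest wild-type library. The log2 fold change was -0.39 (SE 0.07, adjusted p = 0.00320). The antisense gene Gm17276 overlaps its exons and ranged from 0.875 to 1.15 FPKM over all libraries. The protein-coding transcript in the table, ENSMUST00000087723, tracked the gene in C2C12 WT, with 31.7, 29.4 and 30.3 FPKM, but had 14.2, 0.0788 and 25.4 FPKM in C2C12 Myod1-/-. In knockout replicate 2 this transcript was thus near 0 while the gene was at 22.1 FPKM, and the transcript did not pass the test (log2 fold change -2.92, SE 1.93, adjusted p = 0.364).

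Notch2, the receptor that works beside Notch1 in satellite cells, was the most abundant of the 10 genes. It lies at chr3:98013527-98150361 on the + strand (ENSMUSG00000027878) and had 43.1, 34.7 and 38.3 FPKM in C2C12 WT against 43.8, 44.3 and 43.8 FPKM in C2C12 Myod1-/-. The knockout libraries lay close together and just above the highest wild-type library. The log2 fold change of 0.19 (SE 0.08) did not pass the test (adjusted p = 0.0798), and it did so without C2C12 WT replicate 1 (log2 fold change 0.27, adjusted p = 0.00780). Over the 6 libraries the tested genes most like Notch2 were Hcfc1 (Pearson's r = 0.996), Fermt2 (r = 0.996) and Fat1 (r = 0.994) on log2(FPKM + 0.1). Of the 14045 tested genes 139 had r over 0.95. Notch4, a receptor of endothelial cells, ranged from 0.0230 to 0.0372 FPKM in C2C12 WT against from 0.0390 to 0.0667 FPKM in C2C12 Myod1-/-, below the filter.

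Set against each other per length, the receptors summed to 78.6 ± 6.03 FPKM in C2C12 WT against 70.7 ± 1.61 FPKM in C2C12 Myod1-/- (SD, n = 3). In C2C12 WT Notch2 was above Notch3 in every library, and Notch3 above Notch1. The order was the same in C2C12 Myod1-/-. Notch1 made up 10.8% ± 0.361 of the receptor sum in C2C12 WT and 3.99% ± 0.0984 in C2C12 Myod1-/-. Notch3 made up 40.0% ± 1.83 and 33.8% ± 1.81, and Notch2 49.1% ± 1.75 and 62.2% ± 1.73 (SD, n = 3). Notch2 exceeded Notch1 by 4.53 times in C2C12 WT and by 15.6 times in C2C12 Myod1-/-. These shares follow from the gene values above and were not tested. By their highest protein-coding transcripts Notch1 had 12.7 FPKM and Notch2 39.6 FPKM in C2C12 WT. In C2C12 Myod1-/- these transcripts had 4.15 and 44.5 FPKM. Notch1 thus lay closer to Notch2 by transcript values than by gene values, and the shares and ratios depend on which are used.

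**Figure D2:**
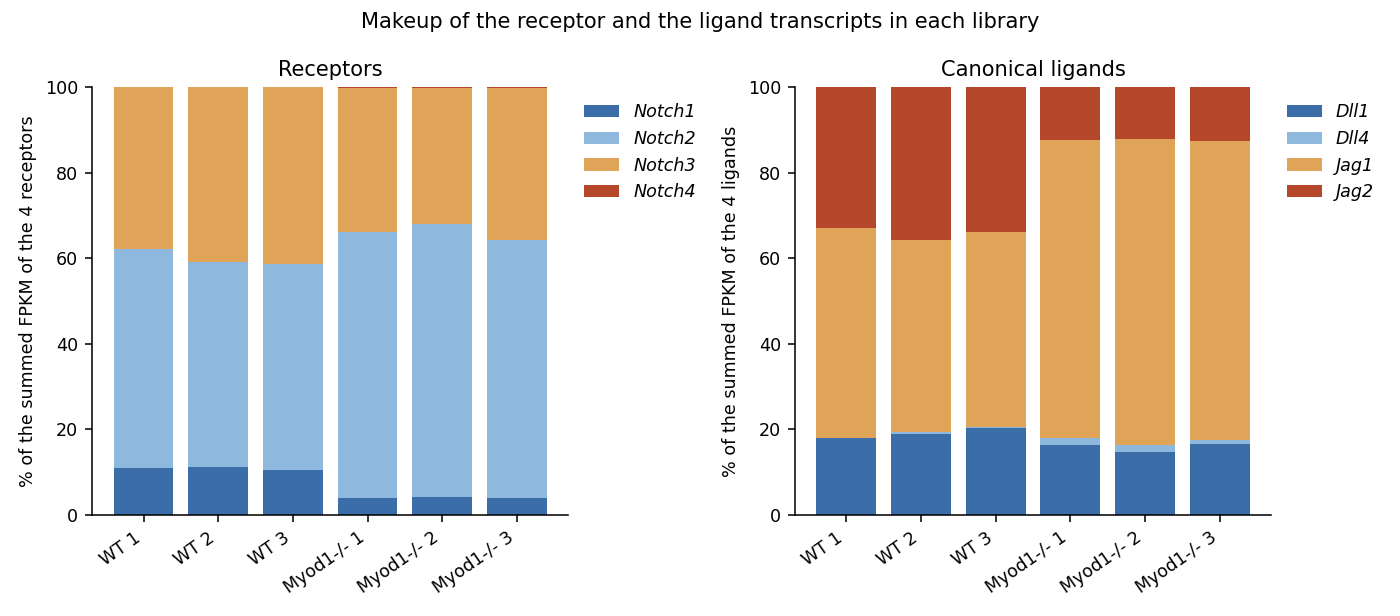
Percentage of the summed FPKM of the 4 receptors (left) and of 4 canonical ligands (right) that each gene took in each library, drawn as stacked bars. In C2C12 Myod1-/- libraries Notch1 and Jag2 took smaller shares, and Notch2 and Jag1 larger ones, than in any C2C12 WT library. Shares are of gene values, which differ from transcript values for Notch1 and Jag2.

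Among the ligands, Jag2, one of the Jagged proteins, had the largest fall. It lies at chr12:112907819-112929776 on the - strand (ENSMUSG00000002799) and had 5.57, 6.22 and 6.08 FPKM in C2C12 WT against 1.51, 1.38 and 1.61 FPKM in C2C12 Myod1-/-. The groups were wide apart. The log2 fold change was -1.92 (SE 0.09, adjusted p = 6.06e-06), and 5.28% of tested genes were as low or lower. Its protein-coding transcript ENSMUST00000075827 went from 6.94 ± 0.431 to 1.73 ± 0.184 FPKM (SD, n = 3), and changed on the log2 scale by -1.94 (SE 0.15, adjusted p = 0.000725).

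Dll1, the Delta-like ligand that proneural and myogenic cells present to their neighbors, lies at chr17:15367354-15376872 on the - strand (ENSMUSG00000014773). It had 3.03, 3.29 and 3.66 FPKM in C2C12 WT against 1.98, 1.70 and 2.12 FPKM in C2C12 Myod1-/-. No knockout library reached the lowest wild-type library. The log2 fold change was -0.75 (SE 0.12, adjusted p = 0.00160). The transcript ENSMUST00000014917 also fell (log2 fold change -0.81, SE 0.18, adjusted p = 0.0316), but this call was lost under 7 of 15 other settings, with an adjusted p of up to 0.0984. These included the fits without C2C12 WT replicate 2 or 3 and without any 1 of the C2C12 Myod1-/- libraries. An antisense gene that overlaps the exons of Dll1, A930024N18Rik, ranged from 0.125 to 0.216 FPKM in C2C12 WT against from 0.0289 to 0.0474 FPKM in C2C12 Myod1-/-.

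Jag1, the other Jagged ligand, lies at chr2:137081456-137116644 on the - strand (ENSMUSG00000027276). It had 8.28, 7.80 and 8.23 FPKM in C2C12 WT against 8.41, 8.26 and 8.98 FPKM in C2C12 Myod1-/-, and the groups overlapped. Its log2 fold change was 0.08 (SE 0.06, adjusted p = 0.294). Dll4, an endothelial ligand, was below the filter, with 0.0142 to 0.0951 FPKM in C2C12 WT against 0.139 to 0.194 FPKM in C2C12 Myod1-/-. The canonical ligands summed to 17.4 ± 0.540 FPKM in C2C12 WT against 12.2 ± 0.660 FPKM in C2C12 Myod1-/-. Jag1 took 46.5% ± 2.20 of that sum in C2C12 WT and 70.3% ± 1.08 in C2C12 Myod1-/-, Jag2 34.2% ± 1.44 and 12.3% ± 0.300, and Dll1 19.1% ± 1.23 and 15.9% ± 0.979 (SD, n = 3). The ratio of Jag1 to Jag2 was 1.36 ± 0.117 in C2C12 WT and 5.71 ± 0.228 in C2C12 Myod1-/-.

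**Figure D3:**
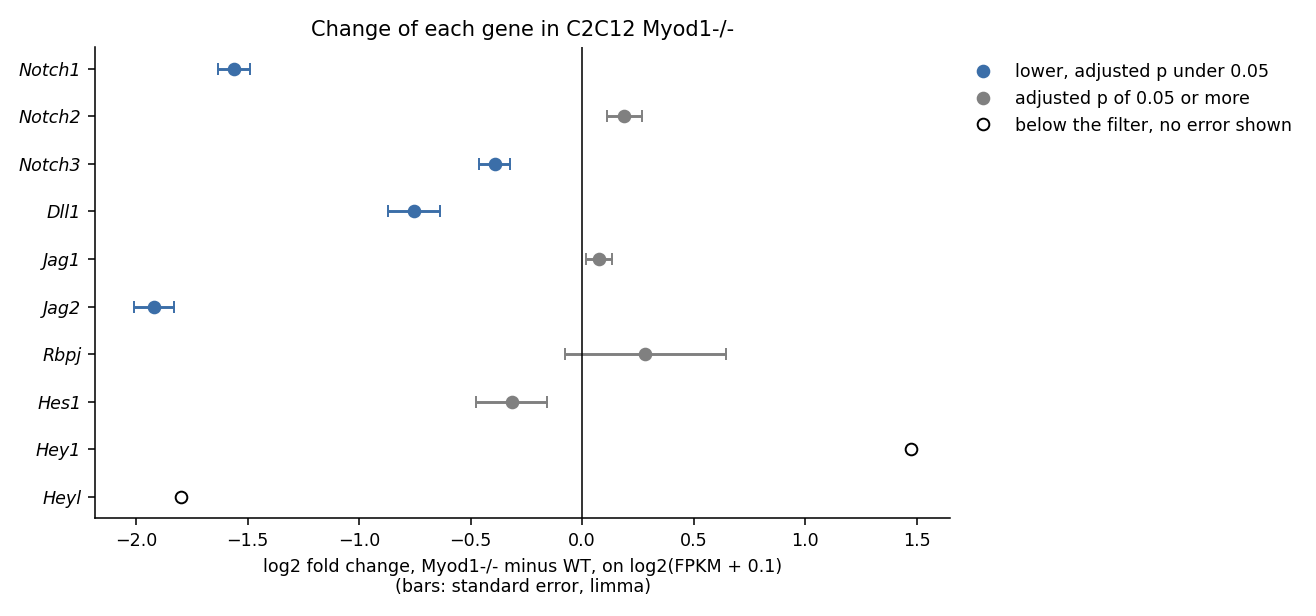
Log2 fold change of each gene in C2C12 Myod1-/- relative to C2C12 WT on log2(FPKM + 0.1), with the standard error from limma as bars (3 libraries per genotype). Notch1, Notch3, Dll1 and Jag2 (blue) fell, 4 genes (grey) did not pass the test, and Hey1 and Heyl (open circles) lay below the filter.

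Rbpj, the DNA-binding factor that all receptors converge on, lies at chr5:53466152-53657362 on the + strand (ENSMUSG00000039191). It had 9.27, 4.38 and 8.94 FPKM in C2C12 WT against 7.27, 6.99 and 12.99 FPKM in C2C12 Myod1-/-. Replicates of 1 genotype differed more than the genotypes did. The log2 fold change was 0.28 (SE 0.36, adjusted p = 0.527), and it was -0.06 without C2C12 WT replicate 2 and -0.00267 without C2C12 Myod1-/- replicate 3. Its annotated transcripts varied still more. The protein-coding ENSMUST00000113865 had 9.98, 2.45 and 4.10 FPKM in C2C12 WT against 0.00778, 0 and 14.8 FPKM in C2C12 Myod1-/-. ENSMUST00000037618, also protein-coding, reached 10.6 FPKM in C2C12 WT replicate 3 and 4.49 FPKM in C2C12 Myod1-/- replicate 3, and was at most 0.0181 FPKM elsewhere. A retained-intron transcript, ENSMUST00000202092, stood at 17.2 FPKM in C2C12 WT replicate 2, the library with the lowest gene value, and at most 1.05 FPKM in the others. The deposited tables list 48 transcripts of the 10 genes, of which 18 were tested. Of these 3 fell, those of Notch1, Dll1 and Jag2, and 1 was called higher, that of Hey1, beside 9.3% of all tested transcripts that fell and 9.57% that rose. The Hey1 transcript passed the filter only through C2C12 Myod1-/-, where it was high, so its call is no support of its own. A further 11474 transcripts in that table were assembled from the reads and are listed with no gene and no position, so that any of them from these genes were not analysed here.

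**Figure D4:**
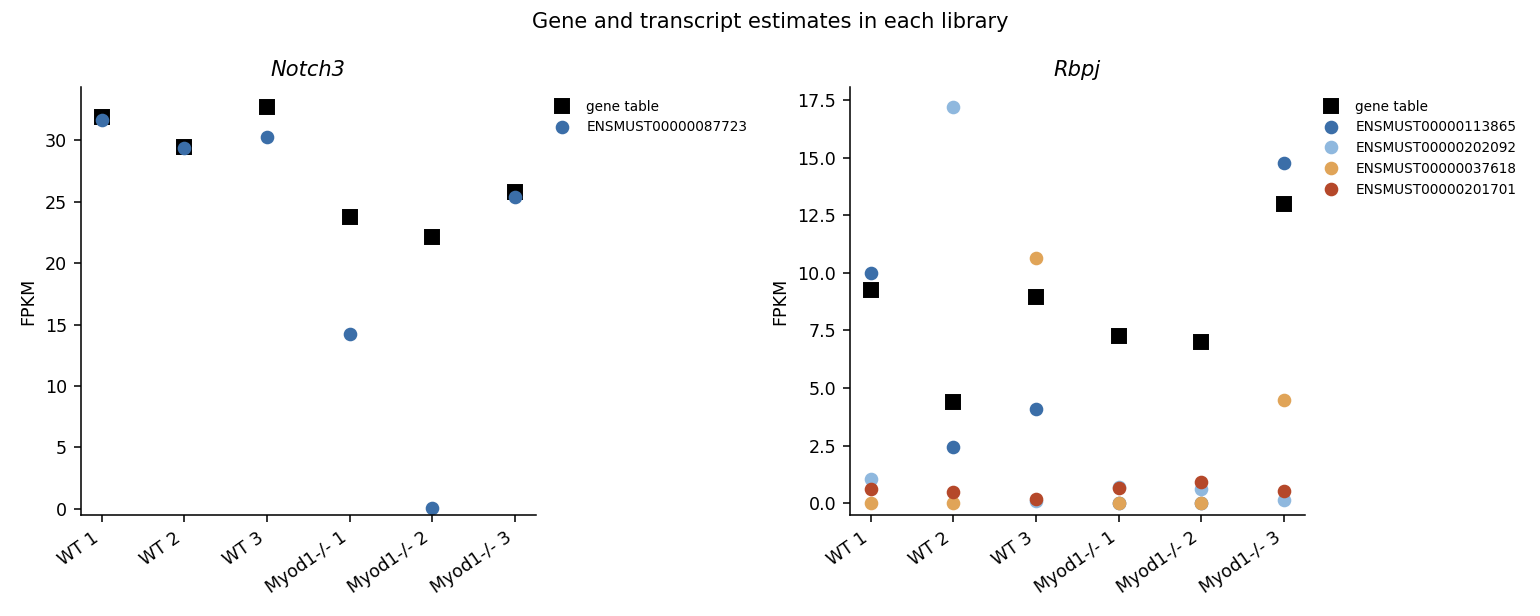
FPKM of Notch3 and Rbpj in each library from the gene table (black squares) and of their annotated transcripts past the filter from the transcript table (circles). The Notch3 transcript was at 0.0788 FPKM in C2C12 Myod1-/- replicate 2 with the gene at 22.1 FPKM, and which Rbpj transcript was high changed from library to library.

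The 3 target genes had low levels in both genotypes. Hes1, a repressor that Notch switches on in many tissues and that oscillates in neural progenitors, lies at chr16:30064384-30067796 on the + strand (ENSMUSG00000022528). It had 2.97, 3.91 and 3.57 FPKM in C2C12 WT against 3.32, 2.30 and 2.75 FPKM in C2C12 Myod1-/-. The groups overlapped, and the log2 fold change was -0.32 (SE 0.16, adjusted p = 0.133).

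Hey1 and Heyl encode related repressors, and both are Notch targets in satellite cells. Hey1 (chr3:8663359-8667256, - strand, ENSMUSG00000040289) had 0.114, 0.248 and 0.251 FPKM in C2C12 WT against 0.827, 0.764 and 0.601 FPKM in C2C12 Myod1-/-. All knockout libraries were above all wild-type libraries, but the mean of 0.467 FPKM over the 6 libraries was just under the filter. The difference of the log2 means was 1.48, and in the fit with no filter on low values the adjusted p was 0.00728. Its protein-coding transcript ENSMUST00000042412 had 0.193 ± 0.0994 FPKM in C2C12 WT against 0.877 ± 0.113 FPKM in C2C12 Myod1-/- (SD, n = 3). It passed the filter only through the knockout libraries, so its log2 fold change of 1.79 (SE 0.40, adjusted p = 0.0329) adds no support to the gene's own values. That call was lost without C2C12 WT replicate 2, and the transcript fell under the filter when any 1 C2C12 Myod1-/- library was left out. Heyl (chr4:123233556-123249875, + strand, ENSMUSG00000032744) had 0.285, 0.340 and 0.240 FPKM in C2C12 WT. It was listed at 0 in C2C12 Myod1-/- replicate 1 and had 0.0117 and 0.0226 FPKM in replicates 2 and 3. The difference of its log2 means, which at these levels depends on the pseudocount, was -1.80, with an adjusted p of 0.000628 in the fit with no filter. The targets thus did not share a direction: Heyl was lower, Hey1 higher, and Hes1 within the spread of the libraries.

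Of the other genes of the Hes and Hey family with Nrarp, 5 were in the table and 1 passed the filter. This was Hes6, which in frogs and mice is known as an antagonist of Hes1 that favors differentiation. It had 34.98, 42.8 and 38.3 FPKM in C2C12 WT against 6.35, 6.64 and 7.31 FPKM in C2C12 Myod1-/-, and fell (log2 fold change -2.50, SE 0.09, adjusted p = 2.04e-06). Per length, Hes6 was 11.1 ± 0.557 times as high as Hes1 in C2C12 WT and 2.48 ± 0.508 times as high in C2C12 Myod1-/- (SD, n = 3). Nrarp, a target that feeds back on the receptor and was named after its values were seen, had 0.0959, 0.260 and 0.190 FPKM in C2C12 WT, 0.0231 FPKM in C2C12 Myod1-/- replicate 2, and was listed at 0 in replicates 1 and 3. Hes7, a repressor of the segmentation clock, ranged from 0.0506 to 0.143 FPKM in C2C12 WT against from 0.198 to 0.303 FPKM in C2C12 Myod1-/-, also below the filter.

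The rest of the pathway was taken from lists of genes by role. Of 79 further genes 75 were in the table and 62 were tested, of which 20 fell, 26 rose and 16 did not pass the test. These counts hold Neurl1a, Mfap2 and Cntn1, which passed the filter only through the genotype in which they were high. Their median log2 fold change was 0.08, beside -0.05 over all tested genes. Falls thus made up a share close to that of all genes, and rises a larger one, with no test of the lists. The counts by role that follow stand beside 33.3% of all tested genes that fell and 27.9% that rose. They rest on few genes each and were not tested either.

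**Figure D5:**
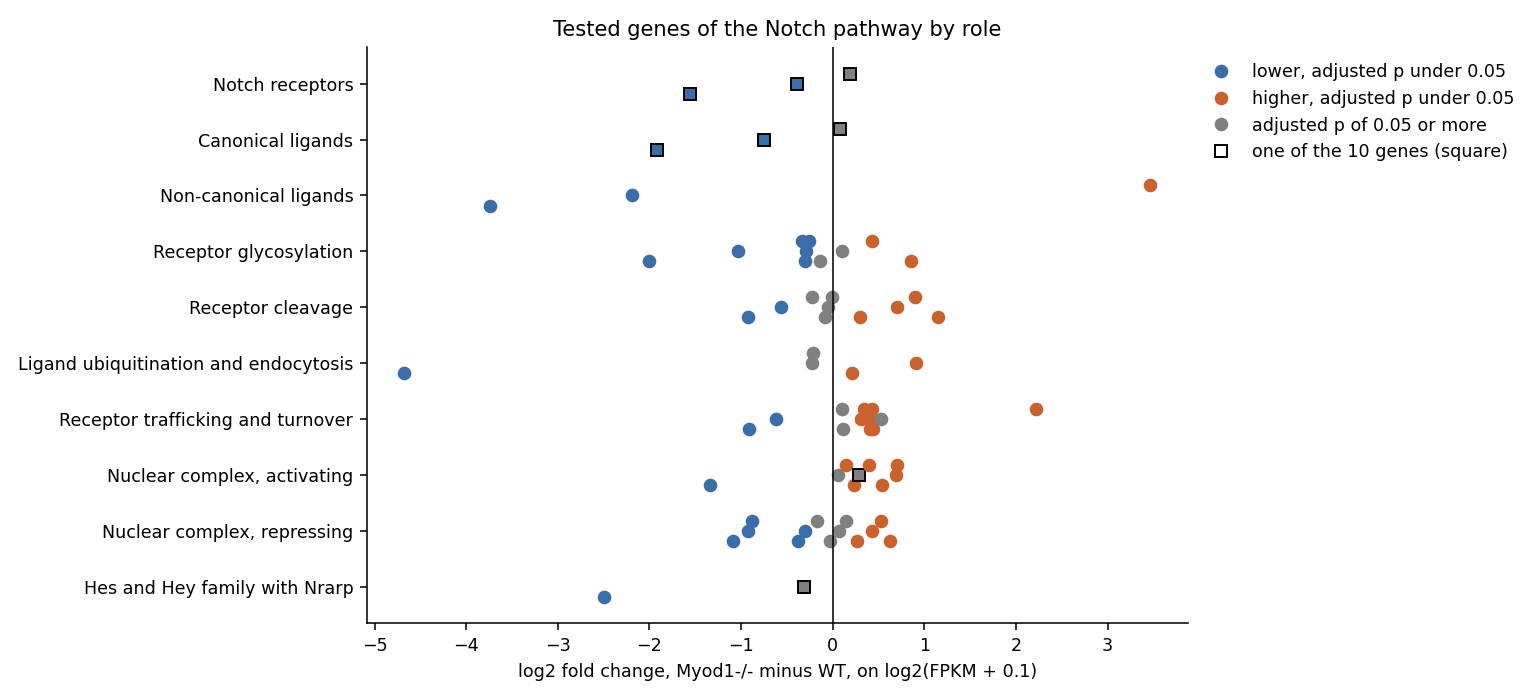
Log2 fold change on log2(FPKM + 0.1) of each tested pathway gene, C2C12 Myod1-/- relative to C2C12 WT, in rows by role, with squares for the 10 genes and circles for the others. The extremes were Neurl1a at -4.68 and Cntn1 at 3.47, which passed the filter only through the genotype in which they were high. Among activators of the nuclear complex 6 of 8 circles were higher (orange), beside 27.9% of all tested genes.

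Receptors are modified by sugars before they reach the surface. Of 10 tested genes for this step 6 fell and 2 rose. Lfng, a fringe enzyme that lengthens O-fucose on the receptor and tunes its response to ligands, had 4.28, 4.45 and 4.42 FPKM in C2C12 WT against 1.08, 0.972 and 1.002 FPKM in C2C12 Myod1-/- (log2 fold change -2.01, SE 0.08, adjusted p = 3.59e-06). Xxylt1, which adds xylose to O-glucose glycans, fell from 12.3 to 5.96 FPKM, and Gxylt1, which acts just before it, rose from 10.1 to 18.3 FPKM. Poglut2 fell from 17.3 to 14.5 FPKM.

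Of 10 tested genes for cleavage of the receptor 2 fell and 4 rose. Furin, the protease that cuts the receptor on its way to the surface, rose from 12.4 ± 0.357 to 27.5 ± 0.819 FPKM (SD, n = 3), and changed on the log2 scale by 1.15 (SE 0.05, adjusted p = 3.28e-06). Ncstn, Adam17 and Psenen also rose, with log2 fold changes of 0.30, 0.90 and 0.70. Aph1b and Psen2, parts of gamma-secretase, fell, with log2 fold changes of -0.92 and -0.56. The call of Psen2 was lost without C2C12 WT replicate 2 (log2 fold change -0.46, adjusted p = 0.0550). Adam10, the main protease that acts after ligand binding, did not pass the test (log2 fold change -0.05, SE 0.18, adjusted p = 0.815), and knockout replicate 2 stood apart with 38.3 FPKM against 24.8 and 24.0 FPKM. Without that library Adam10 was lower (log2 fold change -0.27, adjusted p = 0.0145).

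Ligands work only after ubiquitination and uptake by the cell that presents them. Neurl1a, a Neuralized ubiquitin ligase, had 11.99, 12.5 and 11.5 FPKM in C2C12 WT against 0.340, 0.325 and 0.467 FPKM in C2C12 Myod1-/-, the largest fall of the pathway genes tested (log2 fold change -4.68, SE 0.13, adjusted p = 6.60e-07). It passed the filter only through C2C12 WT, where it was high, so its call is given as a description. Mib1, a ubiquitin ligase for ligands, rose slightly (log2 fold change 0.21, SE 0.07, adjusted p = 0.0421), a call lost without any 1 C2C12 Myod1-/- library, with an adjusted p of 0.0909 to 0.109. The adaptor Epn2 rose (log2 fold change 0.91, SE 0.29, adjusted p = 0.0319), a call lost with no filter and without C2C12 WT replicate 1 or 3 or C2C12 Myod1-/- replicate 2 or 3, with an adjusted p of 0.0557 to 0.0964. Epn1 (log2 fold change -0.22, adjusted p = 0.230) and Mib2 (log2 fold change -0.22, adjusted p = 0.110) did not pass the test. Epn1 was lower without C2C12 WT replicate 1 (log2 fold change -0.37, adjusted p = 0.0250).

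Of 12 tested genes for trafficking and turnover of the receptor 7 rose and 2 fell. Dtx3l, a Deltex-related ubiquitin ligase, had 6.54, 5.78 and 6.26 FPKM in C2C12 WT against 28.4, 29.1 and 30.2 FPKM in C2C12 Myod1-/- (log2 fold change 2.22, SE 0.06, adjusted p = 6.16e-07). Dtx3 rose from 29.4 to 39.9 FPKM. The ubiquitin ligase Nedd4 fell from 130.7 ± 41.4 to 67.3 ± 1.96 FPKM (SD, n = 3), with 178 FPKM in C2C12 WT replicate 2 against 111 and 103 FPKM in the others. Numbl, related to the Notch inhibitor Numb, was the other gene that fell (log2 fold change -0.61, adjusted p = 0.0196), a call lost without C2C12 WT replicate 2 or 3, with an adjusted p of 0.0592 to 0.0627.

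Beside Rbpj, 8 genes that activate transcription with the receptor were tested, of which 6 rose and 1 fell. The gene that fell was the Mastermind coactivator Maml2, with 10.9, 10.2 and 10.1 FPKM in C2C12 WT against 3.95, 3.97 and 4.28 FPKM in C2C12 Myod1-/- (log2 fold change -1.33, SE 0.06, adjusted p = 6.17e-06). Its relative Maml1 rose (log2 fold change 0.54, SE 0.05), as did the acetyltransferase Ep300 (log2 fold change 0.70, SE 0.09) and the corepressor and coactivator Snw1 (log2 fold change 0.69, SE 0.04). Of 13 tested genes that repress with Rbpj 5 fell and 4 rose. L3mbtl3 and Tle2 had the largest falls, with log2 fold changes of -1.09 (SE 0.08) and -0.92 (SE 0.07), while the abundant corepressor Ctbp1 fell by 0.30 on the log2 scale. The genes that rose were Tle1, Ncor1, Spen and Ctbp2, with log2 fold changes of 0.62, 0.53, 0.43 and 0.27.

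Of the non-canonical ligands 3 were tested, of which Mfap5 and Mfap2 were called lower and Cntn1 higher. Mfap2 and Cntn1 passed the filter only through the genotype in which they were high, so the count is given as a description. Mfap5, a microfibril protein, had 10.5, 11.3 and 10.7 FPKM in C2C12 WT against 0.768, 0.599 and 0.799 FPKM in C2C12 Myod1-/- (log2 fold change -3.74, SE 0.11, adjusted p = 9.95e-07). Its relative Mfap2 fell at a lower level (log2 fold change -2.19, SE 0.59, adjusted p = 0.0172) and was listed at 0 in C2C12 Myod1-/- replicate 2. Its call was lost with a pseudocount of 0.01 FPKM (log2 fold change -3.46, adjusted p = 0.0645), and it fell under the filter without C2C12 WT replicate 2. Cntn1, a neural adhesion protein, had 0.00656, 0.0291 and 0.0347 FPKM in C2C12 WT against 1.17, 1.22 and 1.40 FPKM in C2C12 Myod1-/- (log2 fold change 3.47, SE 0.21, adjusted p = 1.87e-05).

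Of 4 genes known downstream of Notch in satellite cells, 2 were tested and they moved in opposite directions. Col5a1, a collagen of the satellite cell niche, had 327, 360 and 357 FPKM in C2C12 WT against 109, 92.3 and 110.2 FPKM in C2C12 Myod1-/- (log2 fold change -1.75, SE 0.08, adjusted p = 5.76e-06). Col5a3 had 61.0, 69.3 and 64.4 FPKM in C2C12 WT against 126, 102 and 130.4 FPKM in C2C12 Myod1-/- (log2 fold change 0.87, SE 0.10, adjusted p = 0.000441). Pax7, the factor that marks satellite cells, was below the filter, with 0.0769 to 0.132 FPKM in C2C12 WT, and was listed at 0 in all 3 C2C12 Myod1-/- libraries. Calcr was at most 0.0153 FPKM in any library.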

How the data were processed

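Total RNA of C2C12 WT and C2C12 Myod1-/- cells was depleted of rRNA, made into libraries with a NEBNext Ultra kit and sequenced on a NovaSeq instrument. The deposited FPKM were computed by the authors with StringTie after mapping to GRCm38 with HISAT2 or TopHat. The submitters' processing notes also name bcl2fastq, fastp and FastQC, and versions, strand setting and annotation are not given in the sources used here. The tables hold 28892 genes and 92513 transcripts. Their 6 columns have short names, which were tied to samples through a supplementary table of the study that prints the same values under genotype and replicate: all 3192 shared genes matched in all 6 columns to within 0.001 of their size. GENCODE M21 held 99.7% of the gene identifiers. The annotated span of Notch3 differs there, and those of the other 9 genes are the same. Because FPKM are relative to the library total, abundant genes that change shift the rest. No counts are given, so no model for counts was used. Relative depth was read from the smallest steps of FPKM times length, with 99.1% to 99.3% of low values within 0.05 of a whole step.

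Genes, and separately transcripts, with a mean of at least 0.5 FPKM over the 6 libraries were fitted as log2(FPKM + 0.1) by genotype with limma 3.58.1 (R 4.3.3), eBayes and an intensity trend. P-values were adjusted by Benjamini-Hochberg over all tested rows. The fit was tested on simulated data. Fold changes understate changes of low genes because of the pseudocount. Python 3.11.15 was used for all else. The genes and lists were chosen with earlier results of these data known. Named were the 10 genes, from each list the 2 other genes of highest mean level and the 2 called genes that changed most, each marker past the filter, genes that complete a count of 5 or fewer, and the 3 genes most like the most abundant of the 10. Of these, 1 gene is not reported here. Alternatives were other pseudocounts, filters and scalings, no trend, a replicate block and leaving out each library. Dll3, Dlk1, Hes5, Hey2 and Tie1 were not analysed here.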

Additional observations from a re-analysis of the deposited data

How the results depend on the processing

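The counts of the 10 genes that fell stayed between 4 and 5 under the 15 alternatives, and Notch1, Notch3, Dll1 and Jag2 kept their direction and their call in each. The count that rose was 0 by limma, and 0 also at the unadjusted threshold of 0.05. It was 1 with no filter on low values, where 4 genes were called DEGs, and 0 to 2 when 1 library was left out, with Hey1 past the filter without any 1 C2C12 WT library and Notch2 called without C2C12 WT replicate 1. In those fits Hey1 passed the filter only through the C2C12 Myod1-/- libraries, where it was high, so its calls there add no support. The count of transcripts that rose was 0 with a mean of at least 1 FPKM and 0 to 1 when 1 library was left out. Same-numbered libraries did not deviate together (correlations of -0.103, -0.138 and -0.029), so no pairing by number was seen. With 3 libraries per genotype these values cannot tell whether same-numbered libraries were prepared together. With a replicate block 4 of the 10 genes fell and 0 rose, 19 other pathway genes fell and 22 rose, and 2 transcripts of the 10 genes fell and 0 rose. Of the other pathway genes 17 to 22 fell and 20 to 28 rose over the alternatives. No scaling moved the median of all genes by more than 0.08 on the log2 scale. Among the other named genes, leaving aside Tle1, Ncor1, Spen and Ctbp2, 5 lost their call under 1 or more settings. These were Mib1 under 7, Epn2 under 5, Numbl and Psen2 under 2 each, and Mfap2 under 1. A call was gained by 4 (Adam10, Epn1, Fat1 and Hcfc1), and the causes were not tested. With 3 libraries per genotype, of 1 clone, and no counts, changes the size of that of Notch2 or Hes1 lie near what the spread of libraries allows to be seen. Hey1 and Heyl had low levels, with means under the filter of 0.5 FPKM, and Heyl was at most 0.0226 FPKM in C2C12 Myod1-/-.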
